A study of Mus musculus with 24 samples.

Results

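The sites described here are open chromatin regions of mouse blood progenitors that lie away from gene ends and carry neither PU.1 nor H3K4me1. They were chosen by peak calls in wild-type cells. Of 42841 autosomal regions with an ATAC-seq peak in both wild-type libraries of set B with an empty guide vector, 30975 were distal, that is, more than 1 kb from either end of every protein-coding gene span. Of these, 4545 overlapped no peak of the 3 wild-type PU.1 and 2 wild-type H3K4me1 libraries. These 4545 regions, called unmarked sites below, made up 14.7% of the distal regions and 10.6% of all 42841. The other distal regions were 19205 with both PU.1 and H3K4me1, 2165 with PU.1 alone and 5060 with H3K4me1 alone.

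The study asked how the histone demethylase Utx and the chromatin remodelling enzymes Brg1 and Chd4 shape open chromatin in haematopoietic stem and progenitor cells. All 24 samples came from lineage-depleted bone marrow of C57BL/6 mice. ChIP-seq was done in Utx wild-type (WT) and Utx knockout (KO) cells, with 3 PU.1 and 2 H3K4me1 libraries per genotype, beside 2 input libraries that entered no comparison. ATAC-seq used cells that also carried Cas9, in a set B and a set A of 8 and 4 libraries. Set B held 2 libraries each of WT with empty vector, WT with a guide RNA (gRNA) against Smarca4, the gene of Brg1, KO with empty vector, and KO with the Smarca4 gRNA. Set A held 2 libraries each of WT with empty vector and WT with a gRNA against Chd4. A culture text stands with set A only, although it speaks of Brg1 editing: 7 days in semi-solid medium, 5 days in liquid medium, and ATAC-seq 6 days after transduction. For the ChIP libraries and for set B no culture is stated. The labels give neither how Utx was knocked out nor the number of animals, and nothing states that replicates come from different animals or cultures. The p-values here therefore measure the spread between libraries, which may be technical within a group. The tests between classes of site pool libraries of different groups, so their spread also holds differences between groups and sets. Peak lists hold no RNA or protein, so the edited genes and the cell identity could not be checked directly. The stem and progenitor genes Meis1 and Kit had 30 and 22 distal open regions nearest to them. Such counts do not check identity, since the kinase gene Prkcb had 37 and the neuronal gene Dlg2 19.

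Open chromatin is DNA that the Tn5 transposase of ATAC-seq can reach, and away from genes it often marks enhancers or boundary elements. PU.1, encoded by Spi1, is an ETS family transcription factor that opens enhancers of the myeloid and lymphoid lineages, and H3K4me1 is the histone mark laid at enhancers by the Mll3 and Mll4 complexes, of which Utx is a subunit. Brg1 is the motor of the BAF remodelling complex, which slides and evicts nucleosomes, and Chd4 is the motor of NuRD, which joins remodelling to histone deacetylation.

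Since no genome sequence was used here, letters could be read only where an unmarked site overlapped a RefSeq promoter window (250 bases before to 50 after a gene start, build GRCm38.p6, which has the coordinates of mm10). Only 41 unmarked sites (0.902%) did, against 7.63% of the distal regions with both PU.1 and H3K4me1, 2.12% with PU.1 alone and 3.26% with H3K4me1 alone. Of the 41 windows, 31 belonged to long non-coding RNAs (lncRNAs) and 10 to alternative starts inside protein-coding genes, and 16 lay wholly in an unmarked site. The rule removed the outer ends of coding genes, so these windows do not stand for all 4545 sites. The 5 below are shown because each lies wholly in an unmarked site and together they cover a range of behaviour, from open in 7 to open in all 12 ATAC libraries. They were picked after their values were seen. Windows of sites open in fewer libraries are left out, such as that of Arl14ep, whose site was open in 2. Capitals mark matches, on either strand, to the motif letters given after the sequences.
Gm29906, chr1:70918460-70918759, minus strand: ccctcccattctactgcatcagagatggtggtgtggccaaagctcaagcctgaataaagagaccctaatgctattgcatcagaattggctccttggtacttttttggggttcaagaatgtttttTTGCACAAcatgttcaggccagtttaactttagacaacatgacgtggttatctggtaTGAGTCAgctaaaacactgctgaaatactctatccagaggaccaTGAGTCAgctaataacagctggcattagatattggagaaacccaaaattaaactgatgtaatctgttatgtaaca
Gm6093, chr13:33569268-33569567, minus strand: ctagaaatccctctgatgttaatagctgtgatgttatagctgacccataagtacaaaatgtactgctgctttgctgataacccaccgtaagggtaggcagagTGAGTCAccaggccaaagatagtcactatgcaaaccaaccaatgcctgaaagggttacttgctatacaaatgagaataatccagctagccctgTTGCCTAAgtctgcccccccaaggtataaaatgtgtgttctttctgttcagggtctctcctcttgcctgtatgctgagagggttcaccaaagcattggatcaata
Gm30438, chr14:67158913-67159212, plus strand: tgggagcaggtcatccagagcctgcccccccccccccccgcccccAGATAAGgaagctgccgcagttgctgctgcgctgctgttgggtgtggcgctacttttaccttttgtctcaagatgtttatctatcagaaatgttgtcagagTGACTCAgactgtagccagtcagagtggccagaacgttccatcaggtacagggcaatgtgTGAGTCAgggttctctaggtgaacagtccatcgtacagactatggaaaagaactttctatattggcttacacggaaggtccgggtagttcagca
Gm35922, chr19:28770516-28770815, plus strand: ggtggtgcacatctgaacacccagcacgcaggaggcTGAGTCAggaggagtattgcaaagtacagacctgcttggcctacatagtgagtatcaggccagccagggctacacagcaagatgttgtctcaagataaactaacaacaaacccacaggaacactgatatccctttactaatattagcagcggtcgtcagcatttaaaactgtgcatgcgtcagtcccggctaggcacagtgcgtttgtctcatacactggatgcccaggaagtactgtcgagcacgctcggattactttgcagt
Gm32213, chr11:20794370-20794669, plus strand: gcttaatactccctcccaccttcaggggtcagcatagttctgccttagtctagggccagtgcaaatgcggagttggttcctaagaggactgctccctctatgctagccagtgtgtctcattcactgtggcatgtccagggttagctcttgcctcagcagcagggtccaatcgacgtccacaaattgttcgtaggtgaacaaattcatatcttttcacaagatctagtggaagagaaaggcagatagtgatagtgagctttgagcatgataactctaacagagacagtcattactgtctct

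The search for AP-1, a dimer of Fos and Jun proteins, used the letters TGANTCA. The C/EBP motif of myeloid cells was searched as TTGCNNAA. Runx proteins, which act in stem cells, were represented by the letters TGTGGTT. For Gata factors of the erythroid and mast cell lineages the string was AGATAAG. PU.1 was searched as GAGGAAGT, and part of the core bound by the boundary protein CTCF as CCANNAGGG. Overlaps between motifs were allowed. The Gm29906 window holds 2 AP-1 matches and 1 C/EBP match. The Gm30438 window holds 2 AP-1 matches and 1 Gata match, the Gm6093 window 1 AP-1 and 1 C/EBP match, the Gm35922 window 1 AP-1 match, and the Gm32213 window none of the 6. AP-1 letters are more frequent in these shown windows than in the wholly contained windows that are not shown. Among the 29 windows with at least 150 bases in an unmarked site, AP-1 letters stood in 6 (20.7%), against 7.91% of all 30208 autosomal promoter windows. Gata letters stood in 3 of the 29 (10.3%, against 3.02%), Runx in 3 (10.3%, against 5.35%) and C/EBP in 3 (10.3%, against 10.9%). The CTCF letters stood in 1 (3.45%, against 6.01%) and the PU.1 letters in 0 (against 3.27%). Among such windows of the other distal classes, AP-1 letters stood in 8.45% with both marks, 11.1% with PU.1 alone and 7.09% with H3K4me1 alone. In the same order, Gata letters stood in 2.69, 2.78 and 6.38%, Runx in 4.80, 8.33 and 6.38%, and C/EBP in 9.99, 11.1 and 4.26%. CTCF letters stood in 8.32, 11.1 and 5.67%, and PU.1 letters in 4.99, 11.1 and 0.709%. These are descriptions of short letter strings, with few windows in unmarked sites, and they show neither binding nor its absence.

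The sites around these windows behaved unlike one another. The Gm29906 site (chr1:70918179-70918788, 29241 bp from Vwc2l) was open in all 8 set B libraries, where peaks covered 426 to 610 bp of it, and in set A in 1 Chd4 gRNA library alone, with 200 bp. The Gm35922 site (chr19:28770489-28770834) was open in all 8 set B and in 0 set A libraries. The Gm30438 site (chr14:67158591-67159265, 74027 bp from Ebf2, a factor of mesenchymal cells) was open in 7 set B libraries and absent from the second KO Smarca4 gRNA library and from set A. The Gm6093 site was open in 11 of 12 libraries and the Gm32213 site in all 12, the latter with 292 to 670 bp covered.

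Of the unmarked sites, 5 overlapped a miRNA hairpin gene, and mature sequences from RefSeq matched for 4 of those hairpins. The sequences of 2 are shown, with the seed (bases 2 to 8) in capitals, since their sites had the most libraries in common.
mmu-miR-29b-3p: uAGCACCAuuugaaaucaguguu
mmu-miR-468-5p: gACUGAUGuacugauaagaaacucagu

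The hairpin of miR-29b-1 lies in chr6:31062857-31063542, 103867 bp from Klf14, the nearest protein-coding gene. Peaks covered 676 and 653 bp of this site in the WT empty libraries of set B, 470 and 426 bp with the Smarca4 gRNA, 396 and 383 bp in KO empty, 271 and 0 bp in KO with the Smarca4 gRNA, and in set A 281 bp in the first empty library only. Every library other than WT empty thus had a narrower peak here than both of those, or none. The Mir468 hairpin lies in chr6:81896527-81897263, 13299 bp from Gcfc2, which was open in all 8 set B libraries (516 to 737 bp) and in 0 of 4 set A libraries. The seeds of these miRNAs differ.

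The unmarked sites were narrow. Their median width, with overlapping peaks of the 2 WT empty libraries merged, was 423 bp (range 208 to 4090 bp, middle 50% 340 to 564 bp). Distal regions with both PU.1 and H3K4me1 had a median of 567 bp, those with PU.1 alone 425 bp, those with H3K4me1 alone 462 bp and regions at gene ends 1021 bp. The deposited ATAC lists give the start and end of each peak without a score, so width is the only size of a peak here and read depth is unknown.

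They also lay farther from genes than regions with both marks or with H3K4me1 alone. Of the 4545, 2300 (50.6%) were inside a protein-coding gene span, against 60.1% of regions with both marks, 46.1% with PU.1 alone and 67.2% with H3K4me1 alone. Those outside genes had a median distance of 36160 bp to the nearest gene, against 16294.5, 25843 and 14703 bp for those 3 classes. More than 50 kb from any gene were 949 unmarked sites (20.9%, against 9.11%, 18.2% and 7.33%). Another unmarked site lay within 10 kb for 1009 (22.2%), and the median gap between neighbours was 61439 bp. For the more numerous regions with both marks these were 56.5% and 7376 bp, for H3K4me1 alone 26.7% and 40072.5 bp, and for the fewer with PU.1 alone 8.68% and 198525 bp. The order of the gaps was thus that of the class sizes. The unmarked share of distal regions ran from 9.45% on chromosome 19 (77 of 815) to 19.6% on chromosome 18 (201 of 1028). Overlap with annotated lncRNAs was 11.3%, against 14.2%, 13.5% and 12.5%, and 1 unmarked site overlapped a tRNA gene, against 83 regions with both marks. At gene ends, where the same overlap rule left 197 of 11866 regions unmarked, the share was 1.66%.

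Most of the sites were not at the border of a PU.1 or H3K4me1 island. Islands are the authors' called ChIP intervals, which in these files stand on a grid of 200 bp. The nearest WT PU.1 island was at a median of 4344 bp, with 86 sites within 200 bp and 589 within 1 kb. The nearest WT H3K4me1 island was at a median of 10226 bp, with 63 sites within 200 bp, and 849 sites (18.7%) had none within 50 kb. Just inside the overlap rule, of the 144 sites within 200 bp of an island a mean of 64.2% had a peak in KO empty and 19.4% in set A empty. Just outside it, 32 distal regions with an island over less than 10% of their length had 60.9% and 20.3%. At the distance rule, the 157 unmarked sites between 1 and 2 kb from a gene end had 62.4% and 24.2%, and 136 unmarked regions up to 1 kb away but outside the end itself, which are not counted among the sites, had 65.1% and 23.2%.

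Openness in the other 10 libraries differed widely. In set B, 3122 (68.7%) and 3544 (78.0%) of the 4545 sites had a peak in the WT Smarca4 gRNA libraries, 3186 (70.1%) and 3206 (70.5%) in KO empty, and 2474 (54.4%) and 1643 (36.1%) in KO with the Smarca4 gRNA. In set A, 1356 (29.8%) and 822 (18.1%) had a peak in WT empty, and 913 (20.1%) and 344 (7.57%) with the Chd4 gRNA. All 4 set A libraries were thus below all 6 others of set B, although 2 of the former have the same genotype and vector as the libraries in which the sites were chosen. The KO Smarca4 libraries were lowest in set B. Autosomal peak numbers were 49696 and 49704 for set B WT empty, 41017 and 45074 for WT Smarca4 gRNA, 39380 and 39925 for KO empty, 35031 and 29096 for KO Smarca4 gRNA, 47591 and 40579 for set A empty, and 33682 and 24268 for Chd4 gRNA. The order of list lengths was not that of the shares in either set: both KO empty lists were shorter than that of the first WT Smarca4 gRNA library but had higher shares, and so did the first Chd4 gRNA library beside the second set A empty library. The shortest list of each set had its lowest share. What list length adds to these shares was not tested beyond the trimmed lists given below. In lists of peaks, fewer open cells and less signal per cell cannot be told apart, nor can set A and set B be told apart from their processing, since the submitters' notes name fewer tools for set A.

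**Figure D1:**
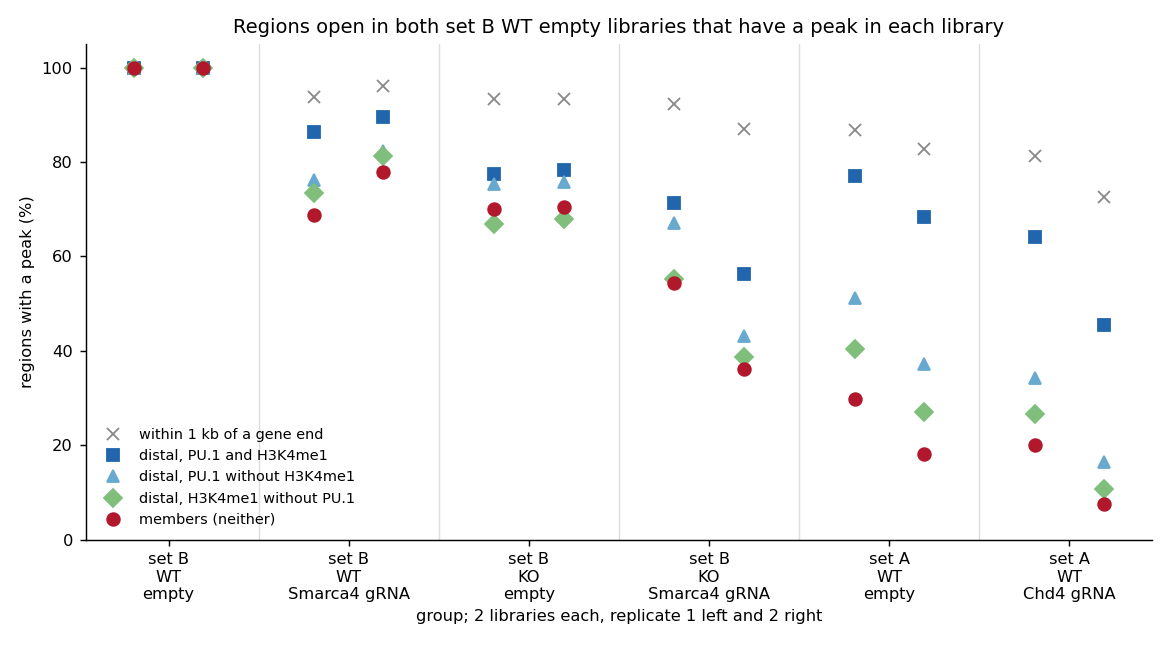
The vertical axis gives the percentage of regions with a peak in each of the 12 ATAC libraries, and symbols stand for unmarked sites (members), the 3 other distal classes and regions at gene ends. All values are 100 in the 2 set B WT empty libraries by the rule of choice, and unmarked sites fall to 29.8 and 18.1% in set A empty while gene ends stay at 86.7 and 82.8%.

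The choice of sites can lower the shares in other libraries, since regions picked for a peak in given libraries tend to have it less often elsewhere. How much of the differences above comes from this was not tested. When the same rule was run on a single WT empty library, the second had a peak at 79.0% of 5903 sites chosen in the first, and the first at 71.2% of 6413 sites chosen in the second. At those sites the KO empty libraries had 56.2 to 59.4%, WT Smarca4 gRNA 54.3 to 66.1%, KO Smarca4 gRNA 27.3 to 45.2%, set A empty 13.6 to 24.9% and Chd4 gRNA 5.68 to 16.2%. The left-out WT library was thus above every other library at the same sites.

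Unmarked sites were open less often than regions with both marks or with PU.1 alone in every one of the other 10 libraries. The share of unmarked sites open averaged 45.3% over these libraries, against 71.4% of regions with both PU.1 and H3K4me1, 55.9% with PU.1 alone and 48.8% with H3K4me1 alone. The difference to regions with both marks averaged -26.1 percentage points (SD 16.9, n = 10 libraries, range -50.2 to -7.33, exact sign-flip permutation test, two-sided, p = 0.00195, the smallest 10 libraries allow, adjusted over 3 classes 0.00293). To PU.1 alone it was -10.6 points (SD 6.05, lower in 10 of 10, exact permutation test, adjusted p = 0.00293). To H3K4me1 alone it was -3.46 points (SD 4.46, lower in 8 of 10, exact permutation test, adjusted p = 0.0371). This last call was lost when any of 7 libraries was left out, namely both of WT Smarca4 gRNA, the second of KO Smarca4 gRNA and all 4 of set A (adjusted p 0.0547 to 0.0742 in the same exact permutation test). Within set B the means were -13.5, -6.97 and -0.932 points (exact permutation p = 0.0313, 0.0313 and 0.469 with 6 libraries), and within set A -44.9, -15.9 and -7.25 points (p = 0.125 each, the smallest that 4 libraries allow in this exact test). The first 2 differences thus held within set B. The third did not, and in both KO empty libraries unmarked sites were open more often than H3K4me1-only regions, by a mean of 2.86 points. In set A the gap to regions with both marks was wider than in any set B library (-50.2 to -38.0 against -20.1 to -7.33 points).

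Width went with openness in every class. The distal regions were put in 5 strata of width, from 200 to 360 bp up to 820 bp and above. From the narrowest to the widest stratum, the mean share of unmarked sites open went from 53.4 to 85.8% in KO empty, from 47.2 to 97.7% in WT Smarca4 gRNA, from 25.1 to 76.7% in KO Smarca4 gRNA, from 14.3 to 45.6% in set A empty and from 4.62 to 37.4% with the Chd4 gRNA. Weighted to the widths of the unmarked sites, the difference to regions with both marks was -15.6 points (exact permutation test over 10 libraries, adjusted p = 0.0205), that to PU.1 alone -10.6 points (0.00586) and that to H3K4me1 alone -0.181 points (0.908). The last difference was therefore not distinguishable once width was held alike. In the narrowest stratum of KO empty, unmarked sites (53.4%) were above regions with both marks (44.7%), and in the widest they were below (85.8 against 95.8%).

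**Figure D2:**
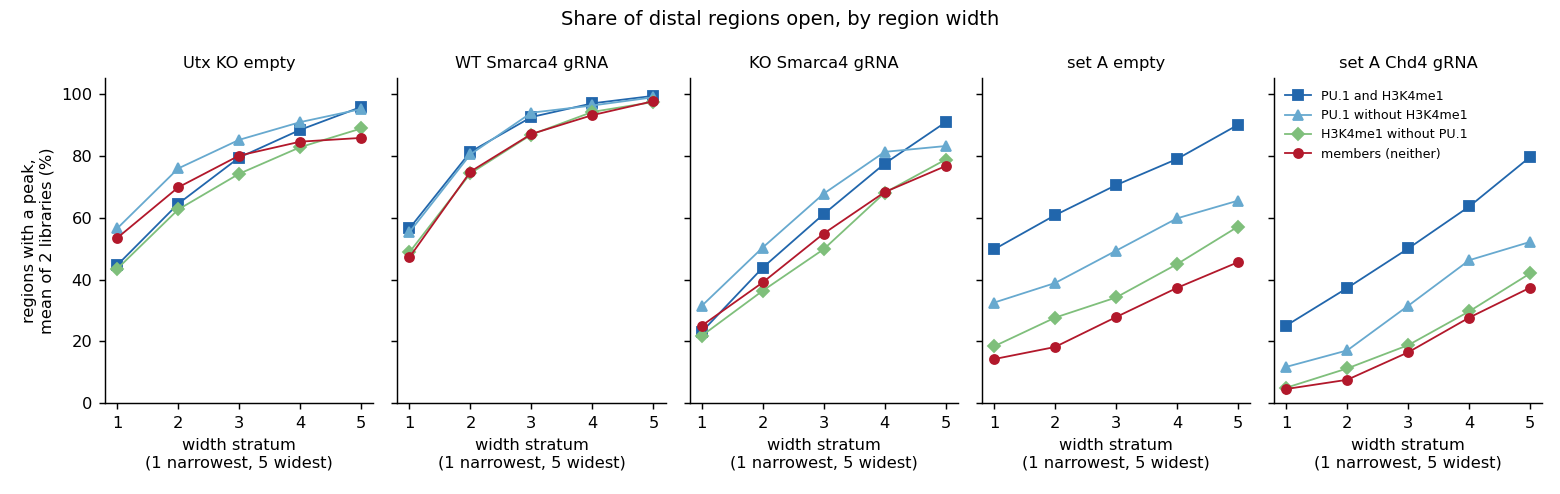
Each panel gives the mean percentage of distal regions with a peak in the 2 libraries of a group (vertical axis) against 5 strata of region width (horizontal axis), with a line for each class. All lines are higher in wider strata, and in set A the unmarked sites (members) stay lowest, from 14.3 to 45.6% in set A empty.

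In KO cells with empty vector, 1030 of the 4545 sites (22.7%) had a peak in neither library, 638 in 1 and 2877 (63.3%) in both. Over all 42841 regions open in both WT empty libraries, 15.5% were lost in this sense. The members' share lay between those of regions with both marks (17.5%) or PU.1 alone (17.1%) and that of H3K4me1 alone (25.9%), and gene ends lost 4.85%. Of the 981 sites over 10 kb from every WT island 75.2% on average were open in KO empty, and of the 949 over 50 kb from a gene 76.1%, against 70.3 ± 0.311% (SD, n = 2) of all unmarked sites. Since the rule fixes all sites as open in WT empty, losses against those libraries carry no test. With the first WT empty library left out of the rule, 36.3% of the sites were lost in KO empty.

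Unmarked sites picked in set A give a comparison in which no set B library chose the peaks. Set A empty has the genotype and vector of set B WT empty, and the sites must also lack WT islands. The choice may therefore still favour WT empty over the other groups of set B. Its part in the differences below was not tested. The same rule applied to the 2 set A empty libraries, an addition made after seeing the data, found 1563 unmarked sites among 26598 distal regions (5.88%, against 14.7% in set B). In set B these were open at 792 and 792 sites (50.7% each) in WT empty, 738 and 732 (47.2 and 46.8%) in KO empty, 733 and 769 in WT Smarca4 gRNA, and 674 and 535 in KO Smarca4 gRNA. Both KO empty libraries were thus below both WT empty libraries, with a difference of -3.65 points (two-sided exact permutation test, p = 0.33, the smallest that 2 against 2 libraries allow). At set A regions with both marks the difference was -10.3 points, with PU.1 alone -5.67 and with H3K4me1 alone -7.81. For the WT Smarca4 gRNA libraries the difference to WT empty was -2.62 points (p = 0.33, exact permutation test). Of the 1563 sites, 741 (47.4%) overlapped 743 of the 4545 sites of set B (16.3%). Picked instead in the KO empty libraries of set B, unmarked sites numbered 3860 (16.0% of 24113 distal regions), and 78.8 and 82.5% of them were open in WT empty, against 70.1 and 70.5% in the other direction.

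Within KO cells, fewer unmarked sites had a peak in either Smarca4 gRNA library than in either empty vector library. In WT cells the reference is 100% by the rule, and losses from it are a description. There 762 sites (16.8%) were lost from both Smarca4 gRNA libraries, against 8.14% of all regions, 7.20% with both marks, 12.9% with PU.1 alone and 14.3% with H3K4me1 alone. This loss was 29.1 and 28.5% with the first or second WT empty library left out, and 31.3% with the second WT Smarca4 gRNA library left out. In KO cells with the same gRNA 1998 (44.0%) were lost relative to WT empty, against 25.8% of all regions. This loss was 27.7% with both marks, 31.5% with PU.1 alone and 43.5% with H3K4me1 alone, the last close to that of unmarked sites. Within KO cells, the share of sites open was 70.1 and 70.5% with empty vector and 54.4 and 36.1% with the gRNA, and these groups do not overlap. The difference was -25.0 percentage points (45.3 ± 12.9 against 70.3 ± 0.311%, SD, n = 2 each, two-sided exact permutation test, p = 0.33, the smallest this design allows). With every ATAC list trimmed to its 24268 widest peaks, which left 906 unmarked sites, the values were 69.9 and 67.4% against 80.2 and 79.5%, a difference of -11.2 points (exact permutation test, p = 0.33). The same trimming gave losses of 15.8% in KO empty, 7.17% in WT Smarca4 gRNA and 25.3% in KO Smarca4 gRNA. With the full lists, a mean of 66.5% of all regions was open in KO with the gRNA against 80.0% with empty vector. These means were 63.8 against 77.8% with both marks, 55.2 against 75.5% with PU.1 alone and 46.9 against 67.5% with H3K4me1 alone. The drop in points was largest at unmarked sites, with PU.1 alone and H3K4me1 alone next.

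Of the 2877 sites open in both KO empty libraries, 599 (20.8%) had no peak in either KO Smarca4 gRNA library. Over all regions open in both KO empty libraries this share was 8.24%, and in the other distal classes it was 8.33% with both marks, 13.6% with PU.1 alone and 16.8% with H3K4me1 alone. In the other direction, 9 of the 1030 sites lost in KO empty (0.874%) had a peak in both KO Smarca4 gRNA libraries, against 0.962% of all such regions. The reopened share of unmarked sites was thus close to that of all regions.

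The unmarked sites were the class least shared with set A. Of the 4545, 3114 (68.5%) were absent from both set A empty libraries, against 29.3% of all regions, 21.0% with both marks, 45.3% with PU.1 alone and 57.6% with H3K4me1 alone. Of the 747 sites open in both set A empty libraries, 160 (21.4%) had no peak in either Chd4 gRNA library. The same loss was 8.56% over all regions open in both set A empty libraries, 9.95% with both marks, 19.9% with PU.1 alone and 21.8% with H3K4me1 alone. Only 2 of 3114 sites (0.0642%) absent from set A empty had a peak in both Chd4 gRNA libraries, against 0.207% of all such regions.

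Compared without pairing, the Chd4 gRNA did not separate from empty vector at these sites. The share open was 20.1 and 7.57% with the gRNA and 29.8 and 18.1% with empty vector, so the groups overlap. Within each replicate number the gRNA library was lower, 20.1 against 29.8% and 7.57 against 18.1%. The labels do not tie these numbers to an animal. The difference was -10.1 points (13.8 ± 8.85 against 24.0 ± 8.31%, SD, n = 2 each, two-sided exact permutation test, p = 0.667). The direction was the opposite with all lists trimmed to equal length by keeping their widest peaks. This kept all 24268 peaks of the second Chd4 gRNA library. It removed narrower peaks from the others, most from the set A empty lists (47591 and 40579 peaks, against 33682 in the first Chd4 gRNA list). It also replaced the 4545 sites by 906 wider ones. List length, the removal of narrow peaks and the choice of sites cannot be told apart, so the trimmed lists do not decide the direction. After trimming, 33.2 and 22.1% of the 906 sites were open with the gRNA against 20.1 and 16.0% with empty vector, a difference of 9.60 points (exact permutation test, p = 0.33). With the full lists, a mean of 50.8% of all regions was open with the gRNA against 64.8% with empty vector. These means were 54.8 against 72.7% with both marks, 25.4 against 44.2% with PU.1 alone and 18.6 against 33.7% with H3K4me1 alone. The drop at unmarked sites was smaller in points than each of these, from a lower share.

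Across the 12 libraries, the sites formed a broad range of patterns. A peak in all 12 was found at 220 sites (4.84%), against 33.3% of regions with both marks, 10.3% with PU.1 alone and 7.71% with H3K4me1 alone. All 8 set B libraries had a peak at 1423 sites (31.3%), against 53.9% with both marks, 39.0% with PU.1 alone and 34.6% with H3K4me1 alone. Of these sites, 556 had none in set A (12.2% of all unmarked sites, against 3.46, 8.41 and 9.72% of those 3 classes). No set A library had a peak at 2969 sites (65.3%, against 19.5, 42.2 and 55.4%). At the other end, 347 sites (7.63%, against 2.46, 4.48 and 7.92%) were open in the 2 WT empty libraries alone. In this last pattern H3K4me1 alone stood slightly above the unmarked sites. Sites open in all 12 had a median width of 685 bp and those open in WT empty alone 318 bp.

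**Figure D3:**
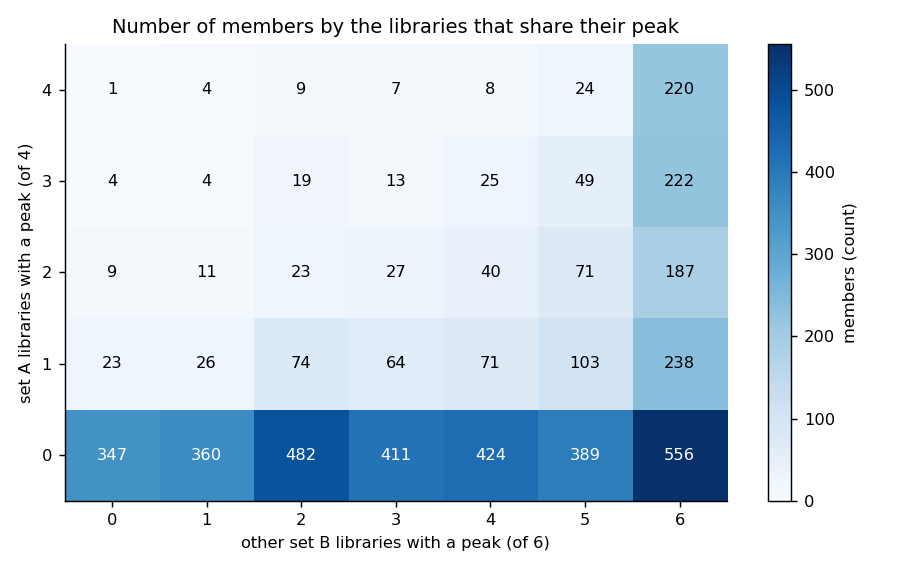
Cells give the number of unmarked sites (members) by how many of the other 6 set B libraries (horizontal axis) and of the 4 set A libraries (vertical axis) have a peak there. The fullest cell holds 556 sites open throughout set B and in no set A library, and 220 sites are open throughout both sets.

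Single sites were ranked by the mean number of their bases under peaks in the 2 WT empty libraries of set B, which can order them otherwise than the merged width. The highest 2 lie inside Sfi1, which encodes a centrosome protein, at chr11:3184186-3188275 (4090 bp) and chr11:3190994-3195055 (4062 bp), and peaks covered at least 3713 bp of each in all 12 libraries. The third in this ranking lies 87654 bp from the pheromone receptor gene Vmn1r2 (chr4:3080967-3084429), was open in all 12 libraries, and had 1512 to 3463 bp covered in set B but 321 to 1012 bp in set A. The next lies 5849 bp from 9230019H11Rik (chr10:3111375-3113992, 2618 and 2550 bp in WT empty), again in all 12, with an H3K4me1 island in the first KO library only (score 1128). These 4 lie near the first sequenced bases of their chromosomes in this build. In all, 40 unmarked sites lie before 3.5 Mb of a chromosome, and 14 of these were open in all 12 libraries. Whether reads from repeated copies gather there was not tested. The fifth lies 56732 bp from Ccny, a cyclin gene, on chromosome 18 (chr18:9506886-9509645), with 2248 and 2746 bp in WT empty, 2751 and 2706 bp with the Smarca4 gRNA, 862 and 1188 bp in KO empty, 1286 and 1278 bp in KO with the gRNA, and 231 and 476 bp in the first set A empty and first Chd4 gRNA library. A second Ccny site (chr18:9485281-9487959) was among the first 5 open in all 12, with 1530 and 1493 bp in KO empty against 2315 and 2649 bp in WT empty.

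No other set B library shared 384 of the sites (8.45%). This share was 4.60% with both marks, 5.68% with PU.1 alone and 9.15% with H3K4me1 alone. At these 384 unmarked sites WT peaks were narrower. The first 5 by the same ranking were in Tmem51 (chr4:142037993-142038771, 779 and 674 bp in WT empty), 1380263 bp from the ephrin ligand gene Efnb2 (chr8:7236244-7236972, 337 and 729 bp), in the glycosyltransferase gene Galnt18 (chr7:111530625-111531295, 425 and 635 bp), in the amino acid transporter gene Slc7a5 (chr8:121891649-121892695, 606 and 443 bp) and in the large oxidoreductase gene Wwox (chr8:114579285-114579905, 401 and 621 bp). The Galnt18 site alone of these 5 had a peak in set A, of 259 bp in the second empty library. The Tmem51 site ended 430 bp from a WT H3K4me1 island.

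The first 5 sites lost after the Chd4 gRNA, ranked likewise, were all open in every WT library of set B. At the potassium channel gene Kcnj12 (chr11:61062238-61063851) peaks covered 1568 and 1606 bp in set B WT empty, 577 and 284 bp in set A empty and 0 bp in both Chd4 gRNA libraries. The sites near Opa1, a gene of mitochondrial fusion (chr16:29713733-29715093), Fbxl21 (chr13:56510501-56511552) and the kinase gene Map2k4 (chr11:65654441-65655431) had 211 to 397 bp in set A empty and were open in all 8 set B libraries. The site in the malic enzyme gene Me3 (chr7:89712496-89713395) had 797 and 900 bp in WT empty and 540 and 863 bp in WT Smarca4 gRNA, but 0 bp in all 4 KO libraries.

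PU.1 and H3K4me1 were called at few unmarked sites in KO cells. The 3 KO PU.1 libraries had an island at 226 (4.97%), 136 (2.99%) and 255 (5.61%) of the 4545 sites, and the 2 KO H3K4me1 libraries at 193 (4.25%) and 211 (4.64%). All 3 PU.1 libraries shared 67 sites (1.47%), against 2.84% of all regions without WT PU.1, and both H3K4me1 libraries shared 85 (1.87%), against 3.69% of all regions without WT H3K4me1. All 5 KO libraries had an island at 12 sites. The rule sets the WT values to 0, so WT libraries left out of the rule in turn give the level to read these by. A left-out WT PU.1 library had islands at 4.13, 2.43 or 2.63% of the sites chosen without it, and the KO libraries at 3.43 to 7.42% of the same sites. A left-out first WT H3K4me1 library had 4.80%, where the KO libraries had 5.03 and 5.57%. A left-out second one had 20.0%, where they had 8.99 and 10.8%. The H3K4me1 share in KO was thus above that of 1 left-out WT library and below that of the other. Without the second WT H3K4me1 library 1138 more regions would have counted as unmarked, and 5.56% of the sites would have had H3K4me1 in both KO libraries in place of 1.87%. Without the first WT PU.1 library 2.40% would have had PU.1 in all KO libraries in place of 1.47%, and without the second KO PU.1 library 2.77%. With only the upper 50% of each ChIP list by score used, these shares were 13% for PU.1 and 9.78% for H3K4me1.

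KO PU.1 islands at unmarked sites had lower scores than their lists as a whole, and KO H3K4me1 islands had scores nearer to those of their lists. The authors' score of an island, used here only within its own list, had a median of 40, 43.5 and 42 at unmarked sites in the 3 KO PU.1 libraries, against 82, 83 and 79 over all islands of those lists. For H3K4me1 the medians were 92 and 113, against 108 and 117. The rule removed every site that overlapped a WT island, and its part in these scores was not tested. Of the sites with islands in all 3 KO PU.1 libraries, 79.1% on average had a peak in KO empty, 83.6% in WT Smarca4 gRNA and 38.1% in set A empty. Of the sites with none, 69.8, 73.0 and 22.9% did.

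The highest PU.1 scores in KO stood at 3 sites. The site 11472 bp from Gapt, a gene of a haematopoietic adaptor protein (chr13:110368692-110369051), scored 348, 262 and 365 for PU.1 and 661 and 584 for H3K4me1, had a WT H3K4me1 island 93 bp away, and was open in all 4 set A libraries and in 0 of 4 KO ATAC libraries. The site 278031 bp from Shh, the hedgehog ligand gene (chr5:28745132-28745554), scored 207, 206 and 278 and was open in 7 set B libraries and 0 of set A. The site in Hspa13, a chaperone gene (chr16:75759055-75759627), scored 193, 145 and 185 and was absent from the second KO Smarca4 gRNA library and from the second of each set A group. The highest H3K4me1 scores stood in Prkcb, a kinase gene of B cell receptor signalling (chr7:122420428-122420929, scores 1549 and 1007), 14276 bp from the cold channel gene Trpm8 (chr1:88292020-88292459, 1537 and 1300) and in the cathepsin gene Ctsh (chr9:90067231-90067697, 1128 and 862). The Prkcb site was open in all 8 set B libraries, and the Ctsh site in WT empty of both sets alone. The Ctsh site also had PU.1 islands in all 3 KO libraries (scores 34, 38 and 29). At the Gapt and Ctsh sites, KO ATAC and KO ChIP calls thus went opposite ways.

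By nearest gene, unmarked sites were spread thinly with a few dense stretches. They were nearest to 2775 of 20665 autosomal protein-coding genes, of which 1873 had 1 site and 107 had 5 or more. Cobl, which encodes an actin nucleator (chr11:12236676-12465022), had the most: 23 of its 25 distal open regions were unmarked, 20 of them inside the gene. Of these 23, 20 and 19 were open in KO empty, 19 and 20 in WT Smarca4 gRNA and 19 and 13 in KO Smarca4 gRNA, but only 2 and 1 in set A empty and 2 and 1 with the Chd4 gRNA. None of the 25 carried H3K4me1 and 2 carried PU.1. Sites of one gene share its locus and are not replicates.

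The next genes had fewer. Ptprg, a receptor phosphatase (chr14:11553440-12242041), had 16 unmarked of 21 distal regions, Col22a1, a collagen (chr15:71795795-72150979), 15 of 15, and Pde1c, a phosphodiesterase (chr6:56069798-56652510), 13 of 14. All 15 at Col22a1 lay without WT islands, and 13 and 12 of them were open in KO empty but 2 and 1 in set A empty. At Pde1c 11 and 11 of 13 were open in KO empty, 12 and 9 in KO Smarca4 gRNA, 5 and 3 in set A empty and 3 and 0 with the Chd4 gRNA. One Pde1c site spans an internal start of the gene and was open in all 8 set B and no set A library. Dusp4, a phosphatase of MAP kinases, had 12 of 24, the ion exchanger gene Slc24a3 11 of 31, the pseudokinase gene Trib2 11 of 22 and the large gene Fhit 10 of 15. Ccny had 10 of 12, as did Gcfc2 with 10 of 13 and Gm40892 with 10 of 14, which tie with Fhit. At Gm40892 and Gcfc2, 10 and 10 sites stayed open in KO empty, whereas at Dusp4 6 and 9 of 12 did. Prkcb had 14 unmarked sites among 37 distal regions. At Prkcb (21) and at Slc24a3 (13) regions with both marks outnumbered the unmarked sites.

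**Figure D4:**
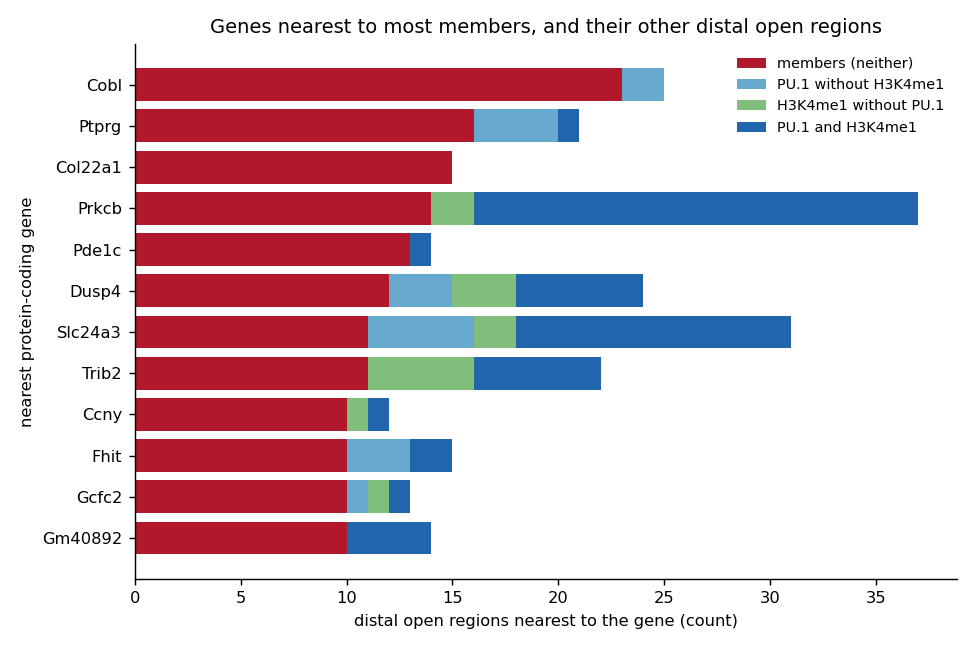
Bars give the number of distal open regions nearest to each gene (horizontal axis), split by class, for the 12 genes with 10 or more unmarked sites (members). At Cobl 23 of 25 and at Col22a1 15 of 15 are unmarked, whereas at Prkcb 21 of 37 carry both PU.1 and H3K4me1.

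Gene lists chosen for these tissues differed in how many of their distal regions were unmarked, with 14.7% over all distal regions as the value to read them by. Among 20 neuronal genes, which serve as genes of another tissue, 34 of 71 distal regions (47.9%) were unmarked, at 11 of the genes. Csmd1, a large complement-related gene of neurons, had 6 of 6, Dlg2, a synaptic scaffold gene, 6 of 19, and Ctnna2, a neuronal catenin gene, 5 of 5. Of these 34 sites, 25 and 25 were open in KO empty, 27 and 30 in WT Smarca4 gRNA, 25 and 18 in KO Smarca4 gRNA, 7 and 2 in set A empty and 5 and 1 with the Chd4 gRNA. Csmd1 kept 5 and 5 of 6 in KO empty and Ctnna2 2 and 2 of 5.

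Among blood lineages the share was highest for the 15 megakaryocyte and mast cell genes, with 23 of 107 (21.5%). Mitf, the master factor of mast cells, had 9 of 26, the stem cell factor receptor gene Kit 4 of 22 and the secretory GTPase gene Rab27b 4 of 14. All 9 Mitf sites were open in both KO empty libraries, 8 and 9 in WT Smarca4 gRNA and 7 and 7 in KO Smarca4 gRNA, against 3 and 1 in set A empty. Of the 23 sites, 2 were lost in KO empty and 6 in KO Smarca4 gRNA, where all unmarked sites lost 22.7 and 44.0%. The 20 haematopoietic stem cell genes had 31 of 205 (15.1%), with 9 of 18 at Mecom, 7 of 30 at Meis1 and 4 of 17 at Bcl11a, all transcription factor genes active in stem cells. Of those 31, 6 were lost in KO empty and 14 in KO Smarca4 gRNA, close to the 22.7 and 44.0% of all unmarked sites.

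The other lists had few unmarked sites. ETS factor genes, the family of PU.1, had 3 of 121 (2.48%), 1 each at Ets1, Ets2 and Fli1, and all 3 were open in both KO empty and both WT Smarca4 gRNA libraries. Granulocyte and monocyte genes had 7 of 65 (10.8%, with 2 of 25 at Zeb2, 1 of 3 at F13a1 and 1 of 4 at Klf4), and 0 of the 7 were lost in KO empty, beside 22.7% of all unmarked sites. These 7 were shared with set A more than most, with 6 and 6 open in set A empty. B cell genes had 6 of 54 (11.1%, with 3 of 15 at Foxo1, 1 of 24 at Bach2 and 1 of 4 at Bank1). T and NK cell genes had 5 of 43 (11.6%, with 3 of 17 at Gata3 and 2 of 8 at Tox). Erythroid genes had 3 of 29 (10.3%, at Epb42, Rhag and Sox6), cohesin and boundary genes 1 of 9 (at Stag1), and stroma and endothelium genes 8 of 55 (14.5%, with 3 of 6 at the chemokine gene Cxcl12, 2 of 12 at Pdgfra and 1 of 2 at Emcn). Of the 8 stromal sites, 1 was lost in KO empty and 6 in KO Smarca4 gRNA, beside 22.7 and 44.0% of all unmarked sites. The lists were not chosen without knowledge of these data.

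**Figure D5:**
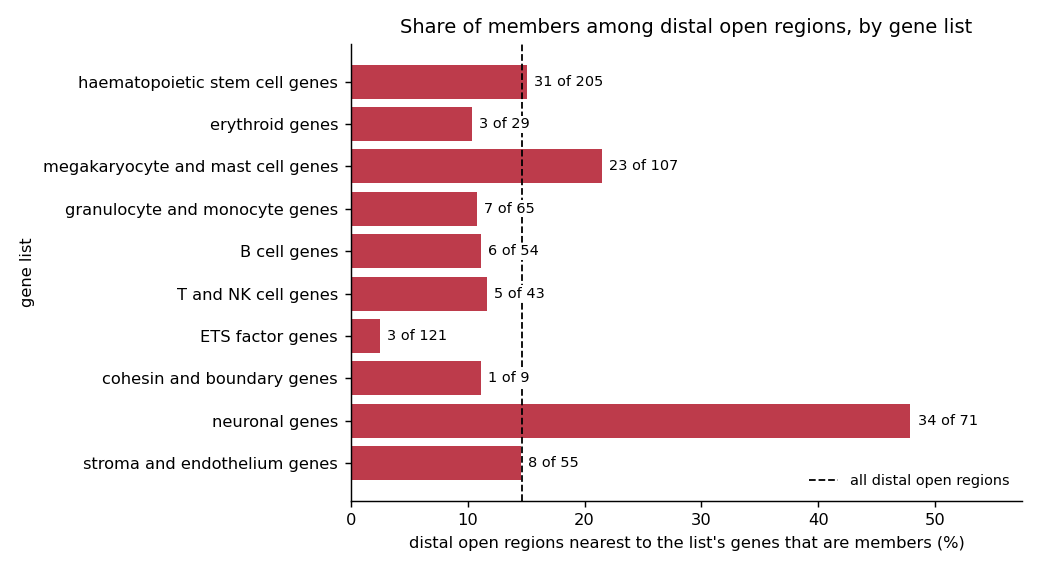
Bars give the percentage of distal open regions nearest to the genes of each list that are unmarked (members), with the counts beside them, and the dashed line gives the share over all distal regions (14.7%). Neuronal genes stand highest (47.9%) and ETS factor genes lowest (2.48%).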

How the data were processed

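Peak lists of 22 libraries were used, 12 of ATAC-seq and 10 of ChIP-seq. The ATAC lists deposited by the authors give start and end only, so depth is unknown, and the ChIP lists deposited by the authors add a whole-number score per island, whose meaning is not given in the sources used here. The submitters' processing notes name Bowtie, Bowtie2, SICER, MACS2 and mm10 without roles or versions, and for set A Bowtie and MACS2 only. Each library has a list of its own.

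Here, overlapping or touching peaks of the 2 set B WT empty libraries were merged, distance was taken to 21900 RefSeq protein-coding gene spans (the annotation gives neither strand nor transcript starts), and a region was open in a library where at least 1 base overlapped a peak. Chosen regions are 1-based. X and Y were left out. Lost means open in every reference library and in no compared one. Shares of sites were compared over libraries by two-sided exact permutation tests, and classes by exact sign-flip permutation tests over 10 libraries with Benjamini-Hochberg adjustment over 3. The code was tested on simulated data.

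The sites and the 10 gene lists were chosen with earlier results of these data known. All 159 list genes matched. Named are the 10 genes with most sites and ties, the 5 widest (mean of bases under peaks in the 2 set B WT empty libraries) of all sites and of those open in all 12, absent from the other 6 set B libraries or lost after the Chd4 gRNA, the 3 highest KO scores per ChIP target, and up to 3 genes per list. Without a genome, the planned motif count was made in promoter windows only, and windows of 1 gene starting within 50 bases were counted once. Alternatives were 50% cover, lists trimmed to equal length, 5 kb from gene ends, the upper 50% of ChIP islands, merging within 200 bp, width strata, each library left out, and the replicate block. The tools were pandas 2.3.3 and numpy 2.4.6 for the intervals and the tests, and matplotlib 3.10.9 for the figures, run in Python 3.11.15.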

Additional observations from a re-analysis of the deposited data

How the results depend on the processing

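Unmarked sites were below regions with both marks, and below those with PU.1 alone, under every alternative run, with differences of -44.9 to -13.5 and -16.7 to -6.97 points. Their adjusted p stayed under 0.05 except in set A alone (-44.9 and -15.9 points, p = 0.125, the smallest that 4 libraries allow in this exact permutation test). The difference to H3K4me1 alone kept its sign but not its call. It was -1.59 points with 50% cover, -2.41 with lists trimmed to equal length, -3.52 with the upper 50% of islands, -0.181 within width strata, -0.932 in set B, -7.25 in set A and -3.63 without the second KO Smarca4 gRNA and Chd4 gRNA libraries, the last 3 settings added after seeing the data. Leaving out 1 library gave -30.0 to -23.4, -15.7 to -9.35 and -5.44 to -2.68 points for the 3 classes. The cause of these moves was not tested.

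The Smarca4 difference in KO cells ranged from -34.2 to -15.9 points with 1 library left out and was -11.2 with trimmed lists. The Chd4 difference ranged from -16.4 to -3.87 points with 1 library left out and turned to 9.60 with trimmed lists. Those hold fewer and wider sites and lost more narrow peaks from the empty vector lists than from the gRNA lists. Losses with 1 library left out were 22.4 to 36.3% in KO empty, 16.6 to 31.3% in WT Smarca4 gRNA and 43.5 to 63.9% in KO Smarca4 gRNA, and with trimmed lists 7.17% and 25.3% for the last 2. KO islands in every library stood at 1.33 to 2.77% (PU.1) and 1.68 to 5.56% (H3K4me1) of sites with 1 library left out, and at 13 and 9.78% with the upper 50% of islands.

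Replicate numbers were shared between guide and empty libraries, but the labels tie them to no animal. Region by region, replicate differences of guide and empty groups barely correlated (0.0155 in the Smarca4 and 0.0602 in the Chd4 comparison, over distal regions). That does not measure whether the shares of sites open move together. In set A the first library was above the second in both groups (29.8 and 18.1% with empty vector, 20.1 and 7.57% with the gRNA). In KO cells the first was above the second with the gRNA (54.4 and 36.1%) but not with empty vector (70.1 and 70.5%). With the number as a replicate block the differences were again -25.0 and -10.1 points (exact p = 0.5 each, the smallest that 2 pairs allow), and with same-numbered libraries averaged to 6 units the class differences were -24.1, -9.77 and -3.56 points (exact permutation test, adjusted p = 0.0469, 0.0469 and 0.125). Depth is unknown for ATAC, so a missing peak may be an undetected one, and 2 libraries a group allow no p under 0.33.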
